A study of Mus musculus with 18 samples.

Results

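The genes described here are 34 that carry glucose to lactate or answer to low oxygen, in cultured mouse macrophages. They were matched by symbol to a list of names, with no threshold on measured values, and all 34 were found among the 30530 rows of the counts table. Of these, 22 belong to the route from glucose to lactate (3 transporters, 16 enzymes of glycolysis including lactate dehydrogenase, and 3 regulators of its flux) and 12 to the hypoxia-inducible factor (HIF) system. All 34 passed the filter on low counts, which left 12741 genes to test.

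RNA-seq of polyadenylated RNA was done on bone-marrow-derived macrophages (BMDM), phagocytes grown from mouse marrow, in 6 groups of 3 libraries. Macrophages of C57BL/6 mice (B6) were left untreated or given 25-hydroxycholesterol (25HC), an oxysterol that macrophages themselves make from cholesterol, at 5 µM for 18 hours before any stimulation. Each was studied at rest and with the Toll-like receptor 2 agonist Pam3CSK4 (PAM3), a triacylated lipopeptide modelled on bacterial ones, at 300 ng/mL, and the labels carry a stimulation time of 18 with no unit. Macrophages of Ch25h-/- mice, which lack the enzyme that makes 25HC, were studied without added 25HC at rest and with PAM3. The cells at rest carry a time of 0, and whether they were cultured as long as the stimulated cells was not stated, and neither were the origin of the knockout allele and whether the mice were littermates, in the sources used here. The labels give each library a mouse number, so that the same number within a genotype is taken as the same animal, and values below are always listed in the order of mouse 1, 2 and 3.

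Glycolysis splits glucose into pyruvate, which lactate dehydrogenase turns into lactate for export. Macrophages that sense bacterial products are known to increase this flux and to stabilise HIF-1, a transcription factor whose alpha subunit is hydroxylated by the EGLN prolyl hydroxylases and destroyed when oxygen is plentiful. HIF-1 binds hypoxia response elements, with the core ACGTG or GCGTG, in many glycolytic genes and in genes for blood vessel growth, mitochondrial turnover and collagen modification.

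Libraries held 14.04 to 150.4 M counts (M, 1e6), and levels are counts per M counts of the library (CPM). The summed level of 8 macrophage markers lay between 20484 and 59409 CPM, and that of neutrophil, dendritic cell, lymphocyte and stromal markers reached at most 46.0, 2.67, 0.261 and 9.94 CPM. The macrophage markers summed to 45788 to 59409 CPM in untreated B6 with PAM3 and to 30632 to 37780.4 CPM with 25HC and PAM3, and their part in the results was not tested. Ch25h itself was at 20.4, 3.16 and 10.2 CPM in untreated B6 at rest, and had 2, 0 and 2 counts in the Ch25h-/- libraries at rest and 1, 2 and 0 with PAM3. Library 2 of Ch25h-/- at rest stood apart from its partners, with Hif1a at 224 CPM against 94.7 and 99.2 and Vegfa at 169 against 29.1 and 45.4. Its neutrophil markers summed to 46.0 CPM against 8.86 and 15.97, and its stromal markers to 9.94 against 3.76 and 2.98. Its dendritic cell markers summed to 2.67 CPM against 0.495 and 1.01, and its macrophage markers to 40452 against 28743 and 31123. Mouse 2 also had the lowest level of 15, 17 and 13 of the 22 glucose-to-lactate genes in untreated B6 at rest, 25HC-treated B6 at rest and untreated B6 with PAM3, and of 16 and 20 in Ch25h-/- at rest and with PAM3. In 25HC-treated B6 with PAM3 the order was reversed, with mouse 2 the lowest for only 3 and the highest for 15, and mouse 1 the lowest for 15.

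Near-identical copies elsewhere in the genome make the level of 9 of the 34 genes uncertain, since the sources used here do not say how reads that align in several places were treated. Copies of at least 95% identity over 100 bases or more covered 88.0% of the Gapdh transcript, with 81 other annotated genes involved, and Gapdh had a median of only 22.7 CPM. They covered 94.2% of Bnip3, 85.6% of Eno1, 68.8% of Pgk1, 65.5% of Pkm, 55.0% of Ldha, 54.5% of Gpi1, 43.1% of Pgam1 and 19.3% of Tpi1. The other 25 genes had no such copy.

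The sequences below are shown because the core of the hypoxia response element lies near the start of many of these genes. RefSeq promoter windows (build GRCm38.p6, 250 bases before to 50 after a gene's start) were found for 32 of the 34. ACGTG, read on both strands, was in at least 1 window of 22 of these 32 genes (68.8%), against 2758 of 9436 tested genes with a window (29.2%) and 5886 of 27025 genes with a window in all (21.8%). With GCGTG added the shares were 30 of 32 (93.8%), 67.2% and 46.7%. These counts include matches after the start, where the only ACGTG matches of Aldoc, Gapdh and Hk1 lie. Of the 13 genes that rose with PAM3 in untreated B6 by more than 2 on the log2 scale, 8 held ACGTG before the start. The share of all tested genes with a match before the start was not computed, so this count only describes these 13. The stretches with the matches nearest the start are printed 5′ to 3′ on the strand of the gene. ACGTG or its reverse complement CACGT is in capitals.
Egln3 (chr12:54204074-54204124, minus strand): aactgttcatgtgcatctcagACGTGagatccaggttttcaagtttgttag
Pfkfb3 (chr2:11502113-11502168, minus strand): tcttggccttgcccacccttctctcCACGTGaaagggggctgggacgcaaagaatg
Hk2 (chr6:82774477-82774531, minus strand): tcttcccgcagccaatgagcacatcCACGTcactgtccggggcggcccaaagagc
Slc16a3 (chr11:120949015-120949066, plus strand): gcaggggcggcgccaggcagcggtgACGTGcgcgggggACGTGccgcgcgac
Slc2a1 (chr4:119108684-119108738, plus strand): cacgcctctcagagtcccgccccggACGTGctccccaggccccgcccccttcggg
Pgk1 (chrX:106186925-106186998, plus strand): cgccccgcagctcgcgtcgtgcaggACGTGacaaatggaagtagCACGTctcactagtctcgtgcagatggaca
Bnip3 (chr7:138909584-138909639, minus strand): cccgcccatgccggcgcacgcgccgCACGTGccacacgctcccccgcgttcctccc
Ldha (chr7:46845731-46845799, plus strand): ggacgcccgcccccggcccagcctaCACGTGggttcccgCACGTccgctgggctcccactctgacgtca
In Pfkfb3, Bnip3 and Ldha the 2 orientations overlap as CACGTG, and Ldha had 5 matches before the start in all. Adm, Pfkl, Tpi1, Gapdh and Eno1, which rose as much, had none there. A match is a description of these letters and shows no binding.

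PAM3 in untreated B6 cells raised most of the list. Of the 34 genes 27 rose, beside 31.3% of all tested genes, 1 fell, beside 30.8%, and 6 were not called. The median log2 fold change was 1.48, against 0.00 over all tested genes. From glucose entry to lactate 18 of 22 genes rose and 0 fell in edgeR's quasi-likelihood test (0 lower also by DESeq2 and at an unadjusted p below 0.05), and of the 12 HIF-system genes 9 rose and Epas1 fell. Stimulation and any difference in culture time cannot be told apart here, nor, in bulk libraries, can fewer cells of a type and less RNA per cell.

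**Figure D1:**
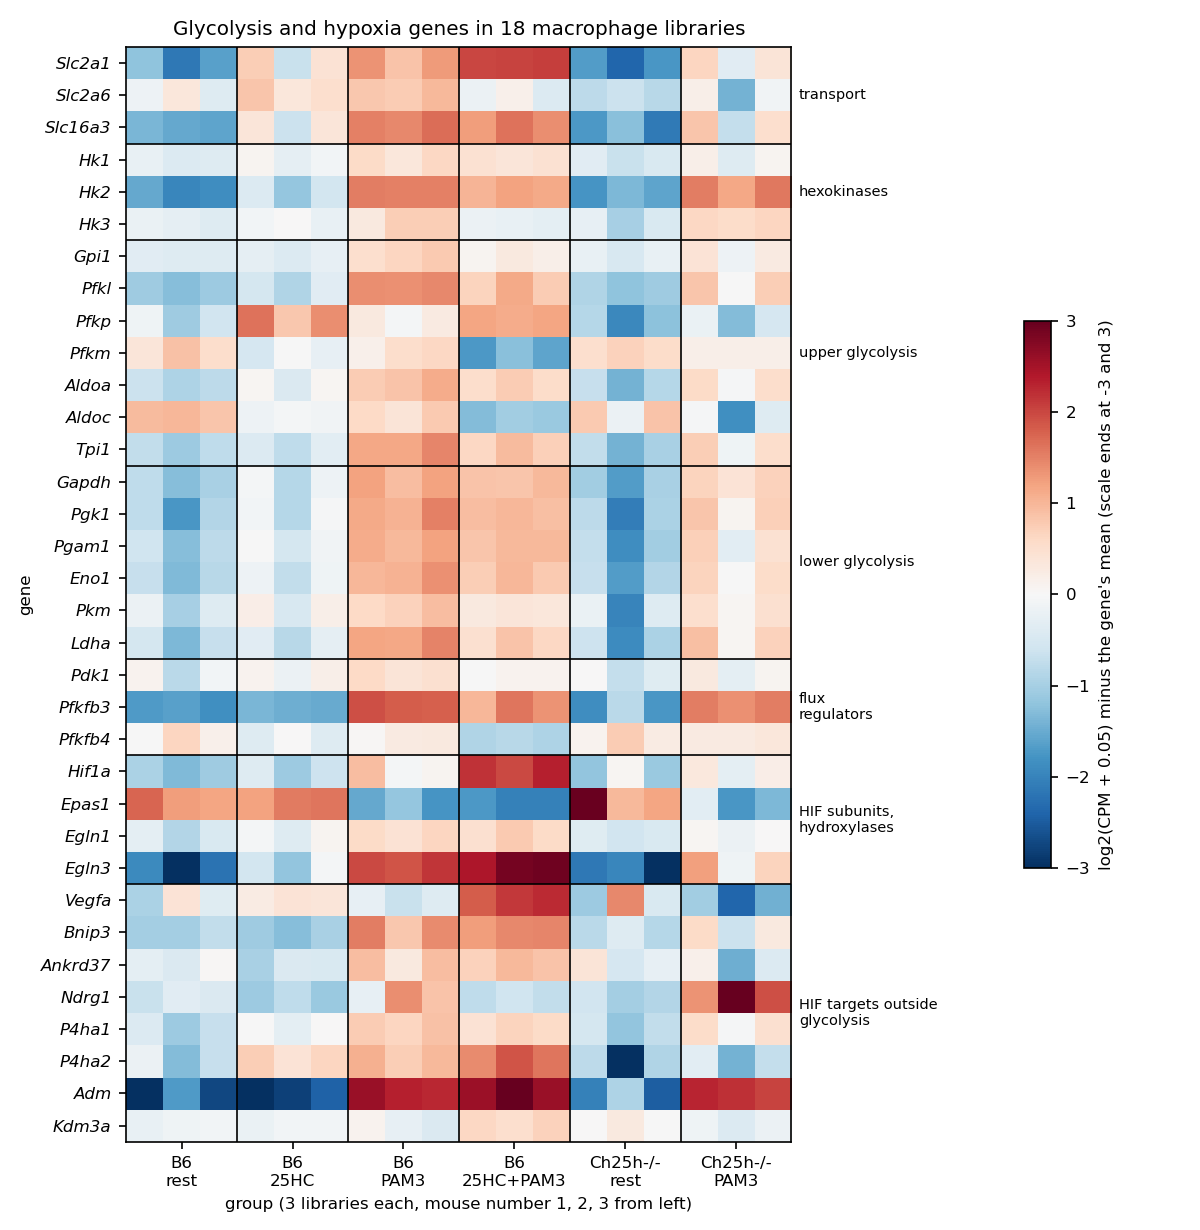
Levels of the 34 genes (rows, grouped by role) in the 18 libraries (columns, by group and mouse number), as log2(CPM + 0.05) minus the mean of the gene over all libraries. Most glycolytic rows turn from blue at rest to red with PAM3, Hif1a and Vegfa are reddest with 25HC and PAM3 together, and the middle column of Ch25h-/- at rest differs from its neighbours.

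The carriers at either end of the route rose strongly. Slc2a1 (GLUT1, the main glucose importer, chr4:119108711-119137983) was at 36.4, 19.1 and 27.3 CPM at rest and at 213, 153 and 205 CPM with PAM3. No library of one group reached the other, and the log2 fold change was 2.79 ± 0.34, adjusted p = 6.8e-06. Here ± is the standard error (SE) from the fit to all 18 libraries, with 3 libraries a group. Slc16a3 (MCT4, which exports lactate) went from 53.5, 47.5 and 46.1 to 394, 375 and 441 CPM, a log2 fold change of 3.04 ± 0.35, adjusted p = 3.19e-06, again with all stimulated libraries above all resting ones. Slc2a6, another member of the glucose carrier family, rose less, by 0.88 ± 0.29, and that call was lost without library 1 or library 3 at rest (adjusted p up to 0.0719).

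Among the hexokinases, which trap glucose in the cell, Hk2 changed most. It was at 32.4, 24.1 and 25.6 CPM at rest and at 272, 266 and 265 CPM with PAM3, a 9.79-fold rise (3.29 ± 0.19, adjusted p = 4.35e-09), with stimulated libraries almost equal to each other. Hk1 and Hk3 rose by 0.86 ± 0.14 and 0.88 ± 0.16 on the log2 scale.

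Of the upper enzymes, Pfkl, the liver-type subunit of phosphofructokinase, the committing step, went from 57.4, 49.9 and 56.6 to 317, 309.8 and 327 CPM (2.54 ± 0.20, adjusted p = 8.69e-08). Tpi1 rose by 2.12 ± 0.22, Aldoa by 1.69 ± 0.21 and Gpi1 by 1.02 ± 0.13. The other subunits and the second aldolase did not pass the test. Pfkp, the platelet-type subunit, gave 0.71 ± 0.30, adjusted p = 0.0527, although all 3 stimulated libraries (209, 163 and 205 CPM) lay above all resting ones (156, 81.4 and 115 CPM), and with the mouse as a block its adjusted p was 0.000597. Pfkm, the muscle type, gave -0.16 ± 0.17 and Aldoc -0.33 ± 0.32.

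All 6 lower enzymes, from Gapdh to Ldha, rose, with log2 fold changes between 1.23 and 2.31. Ldha, which makes lactate, was at 473, 270.1 and 422 CPM at rest and at 1564, 1528 and 1921 CPM with PAM3 (2.11 ± 0.30, adjusted p = 2.63e-05). Pgk1, one of the ATP-yielding steps, went from 49.4, 24.9 and 45.6 to 182, 173 and 239.7 CPM (2.31 ± 0.33, adjusted p = 2.7e-05). Both were lowest in mouse 2 at rest and did not overlap between the groups. Eno1 rose by 2.07 ± 0.26, Gapdh by 2.11 ± 0.21, Pgam1 by 1.97 ± 0.28 and Pkm, the pyruvate kinase, by 1.23 ± 0.34, and for each of the 6 genes all stimulated libraries lay above all resting ones. The share of all tested genes whose groups do not overlap was not computed, so this only describes these 6.

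Among the regulators, Pfkfb3, which makes the allosteric activator of phosphofructokinase, was at 23.1, 24.1 and 21.0 CPM at rest and at 285, 266 and 259 CPM with PAM3. This 11.9-fold rise (3.57 ± 0.23, adjusted p = 1.4e-08) was the largest among the 22 glucose-to-lactate genes. Pdk1, which holds pyruvate back from the mitochondria, rose by 0.70 ± 0.21, and Pfkfb4 gave -0.09 ± 0.18 and was not called.

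In the HIF system, Hif1a, the HIF-1 alpha subunit, was at 111, 85.9 and 103 CPM at rest and at 411, 208 and 228 CPM with PAM3 (1.498 ± 0.33, adjusted p = 0.000974), with mouse 1 the highest in both groups and no overlap. Epas1, which encodes the alpha subunit of the second factor, HIF-2, fell from 6.33, 4.54 and 4.30 to 0.613, 0.811 and 0.506 CPM (-2.92 ± 0.47, adjusted p = 6.75e-05), so that it was below 1 CPM in every stimulated library. The oxygen-sensing hydroxylase Egln3 went from 1.05, 0.474 and 0.851 to 16.4, 15.3 and 18.3 CPM (4.44 ± 0.38, adjusted p = 2.03e-07), and Egln1, the more abundant one at rest per length, rose by 1.08 ± 0.15. Hif1a and both hydroxylases of the list thus rose, and Epas1 alone fell.

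Of the targets outside glycolysis, Adm (adrenomedullin, a vasodilator peptide) was almost silent at rest, with 12 counts over the 3 libraries, and had 670 counts with PAM3 (3.63, 3.02 and 2.90 CPM). The ratio of summed counts, scaled by the summed library sizes of the groups, was 39.5, with a 95% interval for counting error of 22.5 to 76.8. Library 2 held 10 of the 12 resting counts, and without it the fitted log2 fold change was 6.86, against 5.36 with it. Bnip3, a receptor for the removal of mitochondria, rose from 19.8, 19.8 and 24.1 to 116, 70.4 and 108 CPM (2.21 ± 0.25, adjusted p = 3.17e-06). The collagen prolyl hydroxylase subunits P4ha2 and P4ha1 rose by 1.60 ± 0.40 and 1.47 ± 0.19, and Ankrd37 and Ndrg1 by 0.96 ± 0.32 and 1.29 ± 0.46. Vegfa, the angiogenic factor, and Kdm3a, a histone demethylase, did not pass the test (-0.23 ± 0.49 and -0.04 ± 0.13), although both are classical HIF targets. The calls on Ndrg1 and Ankrd37 were each lost without 3 of the 6 single libraries, with adjusted p up to 0.124 for Ndrg1, without library 2 with PAM3, and 0.0583 for Ankrd37, without library 2 at rest. Upper-quartile scaling moved the median of all genes from 0.00 to -0.13 here, from -0.02 to -0.15 in 25HC-treated B6 and from -0.04 to -0.16 in Ch25h-/-, and reversed no call on the 34 genes.

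25HC on resting B6 cells raised the carriers Slc2a1 and Slc16a3 and a few enzymes, and lowered others. The third carrier of the list, Slc2a6, was not called (adjusted p = 0.140). Of the 34 genes 11 rose, beside 14.8% of all tested genes, 3 fell, beside 11.4%, and 20 were not called. The median was 0.43, against -0.01 over all genes. These libraries share the untreated resting group with the PAM3 comparison above, so values for the same genes in both are set side by side below and not correlated.

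**Figure D2:**
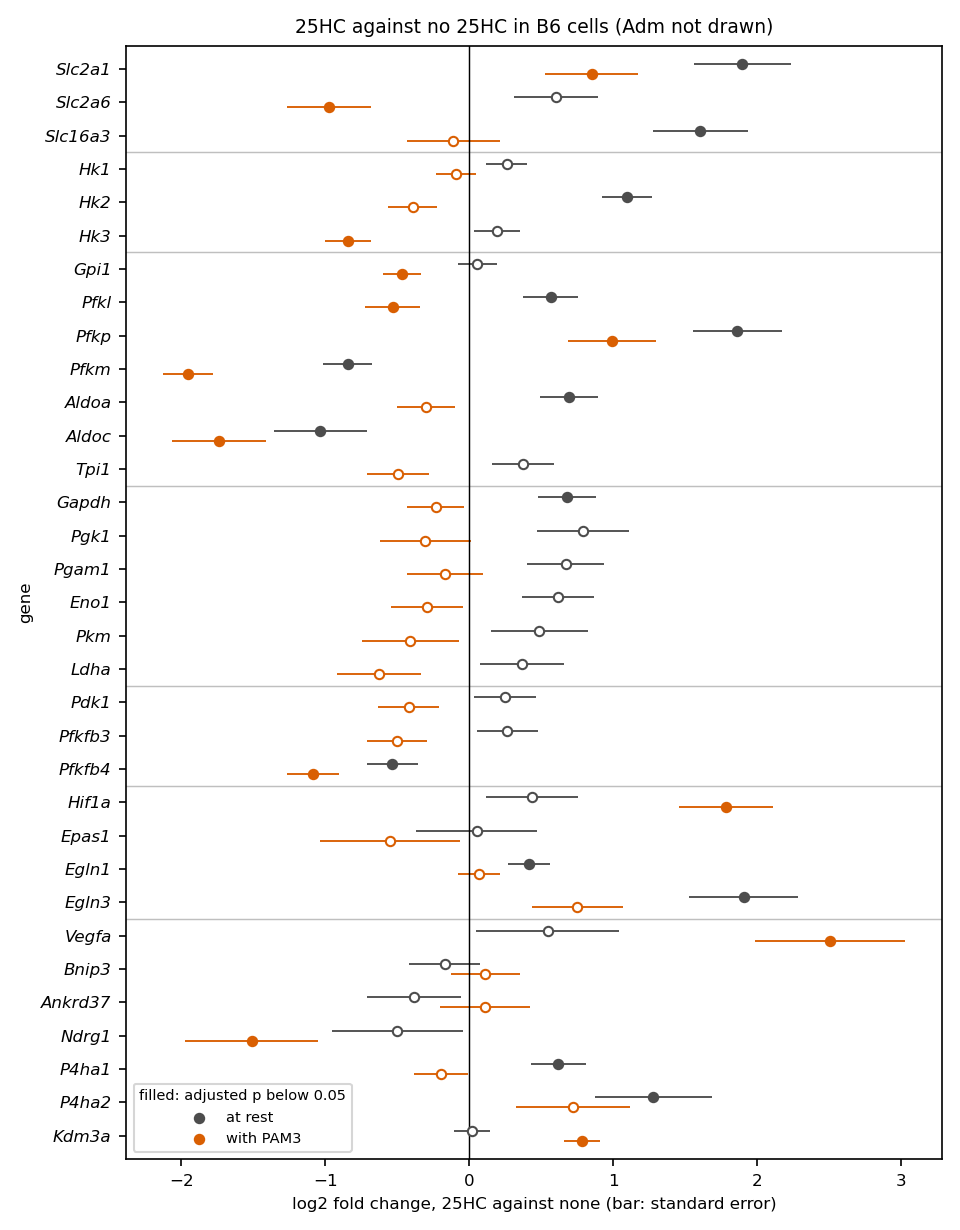
Log2 fold change of 25HC against none in B6 cells at rest (grey) and with PAM3 (orange) for 33 of the 34 genes, with SE bars and filled points for an adjusted p below 0.05. For all 22 glucose-to-lactate genes the grey point lies to the right of the orange one, while for Hif1a, Vegfa and Kdm3a the orange point lies to the right.

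Slc2a1 was at 141, 52.8 and 114 CPM with 25HC, against 36.4, 19.1 and 27.3 CPM without. The rise was seen in each of the 3 mice and was 3.72-fold (1.90 ± 0.33, adjusted p = 0.00123), beside 6.91-fold with PAM3. Slc16a3 was at 179, 89.1 and 178 CPM with 25HC (1.60 ± 0.33, adjusted p = 0.00321). Both carriers were lowest in mouse 2 among treated libraries, yet above every untreated one.

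The second large change was in Pfkp (chr13:6579768-6648777), at 156, 81.4 and 115 CPM without and 531, 299 and 451 CPM with 25HC. All treated libraries lay above all untreated ones (1.86 ± 0.31, adjusted p = 0.000872), a 3.63-fold rise, where PAM3 gave 1.64-fold. Hk2 rose to 69.98, 41.9 and 63.3 CPM (1.09 ± 0.18, adjusted p = 0.000652). Aldoa, Gapdh and Pfkl rose by 0.69 ± 0.20, 0.68 ± 0.20 and 0.56 ± 0.19.

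The muscle-type Pfkm fell from 22.8, 32.5 and 25.4 to 12.4, 17.6 and 14.96 CPM (-0.84 ± 0.17, adjusted p = 0.00257), Aldoc from 73.1, 75.1 and 67.9 to 33.8, 36.4 and 35.3 CPM (-1.03 ± 0.32, adjusted p = 0.0285), and Pfkfb4 also fell (-0.54 ± 0.18). The falls were seen in all 3 mice. In the HIF system Egln3 rose from 1.05, 0.474 and 0.851 to 2.81, 1.80 and 3.96 CPM (1.90 ± 0.38, adjusted p = 0.00255), P4ha2 by 1.28 ± 0.40, P4ha1 by 0.62 ± 0.19 and Egln1 by 0.42 ± 0.15, while Hif1a (0.44 ± 0.32, adjusted p = 0.331) and Vegfa (0.54 ± 0.50) were not called.

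Slc2a1, Slc16a3, Pfkp, Hk2, Egln3 and Pfkm stayed called without any 1 library, and the other 8 lost their call without at least 4 of the 6 single libraries, with 6 calls left in all without library 2 or 3 at rest or library 1 or 3 with 25HC. The call on Egln1 was also lost under 5 of 8 other settings, with adjusted p from 0.0534 with DESeq2 to 0.152 with only the groups compared in the fit. With the mouse as a block, 4 more rose, namely Pgam1 (adjusted p = 0.00231), Pgk1 (0.00958), Eno1 (0.0167) and Hk1 (0.0484), and without mouse 2 in any group the count was 22. Over all tested genes the block called 2242 higher and 1954 lower of 12741. Without mouse 2 these were 2693 and 2412 of 12731. The counts over all tested genes fell without single libraries too, from 1886 and 1448 of 12741. Without untreated library 2 they were 1465 and 1027 of 12871, and without untreated library 3 they were 1187 and 910 of 12901. Without treated library 1 they were 973 and 551 of 12963, and without treated library 3 they were 1043 and 569 of 12957.

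With PAM3 present, Hif1a and Vegfa were higher in cells given 25HC than in cells without it, and Pfkm, Aldoc and Hk3 were lower, while the list as a whole was called no more often than other genes. Of the 34 genes 5 were higher with 25HC, beside 21.5% of all tested genes, 8 were lower, beside 23.6%, and 21 were not called. The median was -0.30, against -0.04 over all genes, and 20 of 22 glucose-to-lactate genes had a negative value, of which 7 passed the test.

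Hif1a (chr12:73901375-73947530) was at 972, 856 and 1085 CPM with 25HC and PAM3, against 411, 208 and 228 CPM with PAM3 alone. The lowest treated library was above the highest untreated one, and the difference was 3.44-fold (1.78 ± 0.33, adjusted p = 0.000464). Vegfa (chr17:46016993-46032369) was at 219, 270.5 and 292 CPM against 51.8, 38.7 and 47.4 CPM, a 5.67-fold difference (2.50 ± 0.52, adjusted p = 0.00115) with no overlap. Kdm3a rose from 74.8, 58.4 and 51.7 to 107, 99.0 and 112 CPM (0.78 ± 0.13, adjusted p = 0.000147).

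Of the carriers and enzymes, Slc2a1 reached 336, 340.2 and 352 CPM (0.85 ± 0.32, adjusted p = 0.0431), its highest level in any group, and Pfkp 389, 372 and 387 CPM (0.99 ± 0.30, adjusted p = 0.0149). Both were above every library with PAM3 alone. The call on Slc2a1 was lost without any 1 of the 6 libraries (adjusted p up to 0.148) and that on Pfkp without library 2 with PAM3 alone (0.0635).

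The largest fall was that of Pfkm, at 19.6, 25.5 and 27.1 CPM with PAM3 alone and 5.34, 7.40 and 5.87 CPM with 25HC (-1.95 ± 0.17, adjusted p = 1.07e-06). Aldoc fell from 56.9, 49.1 and 65.5 to 15.4, 18.3 and 17.6 CPM (-1.74 ± 0.33, adjusted p = 0.000541) and Pfkfb4 from 56.4, 67.3 and 68.1 to 29.6, 31.4 and 29.4 CPM (-1.08 ± 0.18, adjusted p = 0.000174). These 3 genes were also the 3 that fell with 25HC at rest. Hk3, the most abundant hexokinase, fell from 361, 494 and 489 to 260.0, 251.2 and 240.1 CPM (-0.84 ± 0.16, adjusted p = 0.00056). Slc2a6 (-0.97 ± 0.29), Pfkl (-0.53 ± 0.19) and Gpi1 (-0.47 ± 0.13) were also lower.

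Ndrg1, a stress-responsive HIF target, was at 159.7, 494 and 343 CPM with PAM3 alone and at 112, 125 and 113 CPM with 25HC (-1.51 ± 0.46, adjusted p = 0.0143). Its call, which rests on an untreated group spread over 3-fold, was lost without library 2 with PAM3 alone (adjusted p = 0.0851), and those on Slc2a6 and Pfkl were lost without 1 and 5 of the 6 libraries. With the mouse as a block 6 more passed, with Tpi1 (adjusted p = 0.0125), Ldha (0.0186), Pdk1 (0.036) and Pfkfb3 (0.0499) lower and Egln3 (0.0269) and P4ha2 (0.0299) higher. The count was 21 when only the groups compared were fitted and 26 without mouse 2 in any group. Over all tested genes the block called 3029 higher and 3345 lower of 12741. With only the groups compared these were 2947 and 3109 of 12309, and without mouse 2 they were 3042 and 3573 of 12731. Bnip3 and Ankrd37, at 0.11 ± 0.24 and 0.11 ± 0.31, were not called, with 95% intervals of -0.40 to 0.62 and -0.56 to 0.77.

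**Figure D3:**
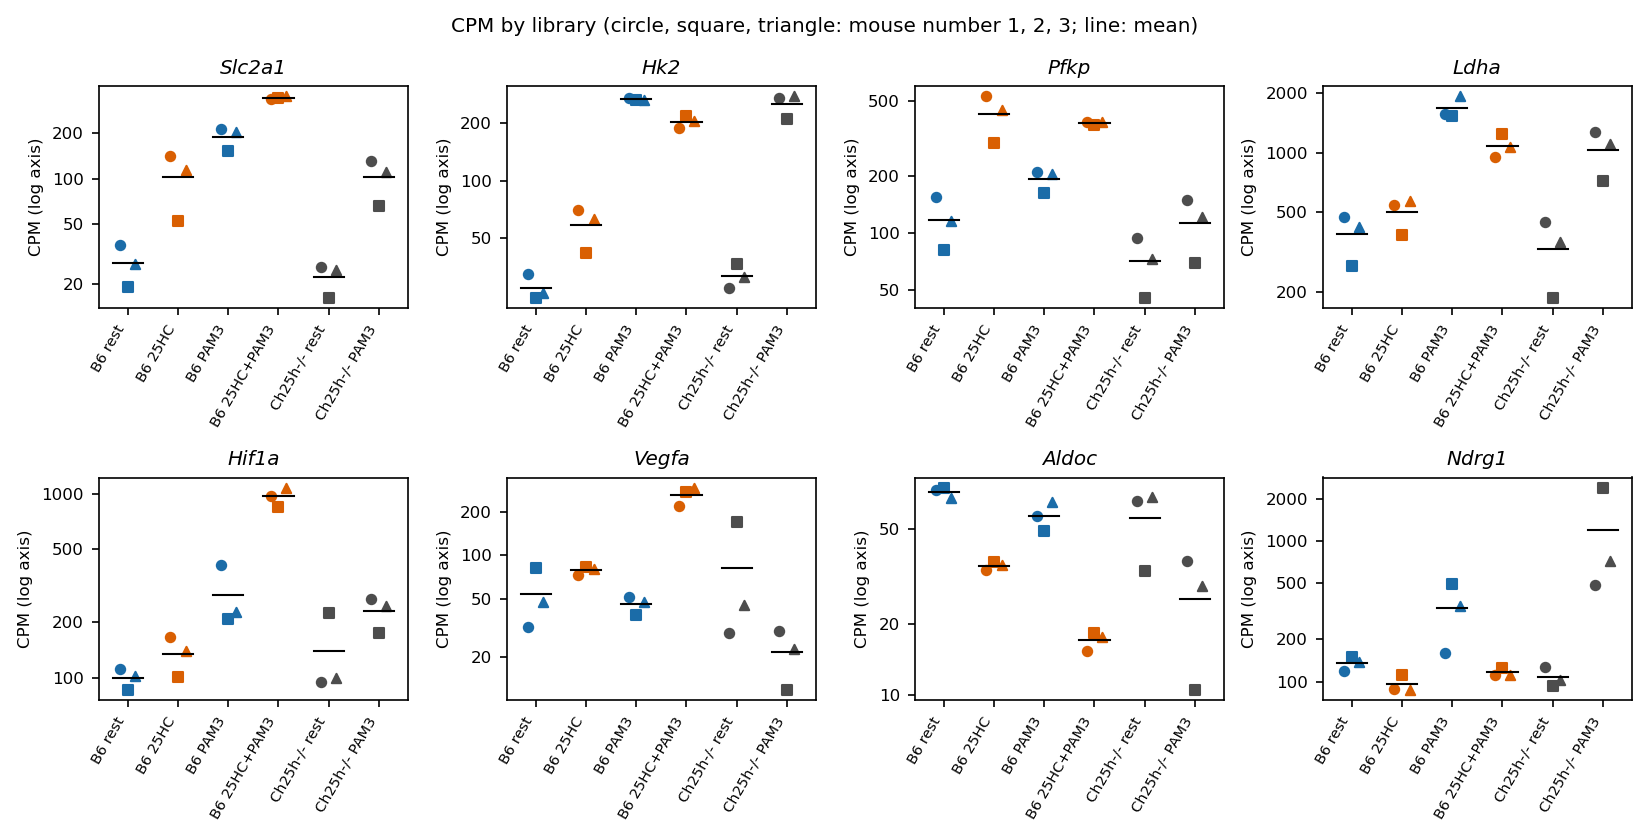
CPM on a log axis of 8 genes in the 18 libraries, with 1 symbol per mouse number and a line at the mean of each group. Slc2a1 is highest with 25HC and PAM3 together, as are Hif1a and Vegfa, the means of Ldha and Hk2 are below those with PAM3 alone (neither passed the test), Aldoc is lowest there among B6 groups, and Ndrg1 is highest in Ch25h-/- with PAM3.

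In 25HC-treated B6, PAM3 against rest raised 24 of the 34 genes, beside 28.5% of all tested genes, and lowered 4, beside 30.4%. The median was 1.08, against -0.02. Over all genes upper-quartile scaling changed the split from 3636 higher and 3871 lower to 2794 higher and 4597 lower, and the 34 genes then gave 23 higher and 5 lower. Among the genes that rose, Egln3 went from 2.81, 1.80 and 3.96 to 22.4, 30.6 and 31.2 CPM (3.29 ± 0.35, adjusted p = 2.01e-06) and Pfkfb3 from 28.9, 27.0 and 26.1 to 150.4, 229.8 and 192 CPM (2.80 ± 0.22, adjusted p = 1.17e-07). Ldha went from 545, 386 and 572 to 954, 1232 and 1060.3 CPM (1.11 ± 0.29, adjusted p = 0.00445), with all 3 stimulated libraries above all resting ones. Hif1a rose by 2.84 ± 0.34 and Vegfa by 1.73 ± 0.51, and both had their highest levels of all 6 groups there. Pfkm, Aldoc and Pfkfb4 fell with PAM3 (-1.27 ± 0.17, -1.04 ± 0.32 and -0.64 ± 0.18), as did Epas1 (-3.52 ± 0.48). Slc2a6 gave -0.70 ± 0.29, adjusted p = 0.0515, and with the mouse as a block its adjusted p was 0.0431. P4ha2 rose by 1.04 ± 0.40, a call lost with upper-quartile scaling (adjusted p = 0.0554) and without 5 of the 6 single libraries (up to 0.105).

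The difference of these PAM3 responses, in 25HC-treated minus untreated B6, was tested as an interaction. It was negative for 22 of 22 glucose-to-lactate genes, and 10 of them passed the test, while 0 were positive and called (0 also by DESeq2 and at an unadjusted p below 0.05). Over the 34 genes 11 had a smaller or more negative response with 25HC, beside 15.8% of all tested genes, and 3 a larger one, beside 12.5%, with a median of -0.85, against -0.08.

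For Slc16a3 the PAM3 response was 3.04 in untreated and 1.33 in treated cells on the log2 scale, a difference of -1.72 ± 0.46, adjusted p = 0.0136. For Hk2 it was 3.29 and 1.80 (-1.49 ± 0.24, adjusted p = 0.00101), for Pfkl 2.54 and 1.45 (-1.10 ± 0.27, adjusted p = 0.00894) and for Hk3 0.88 and -0.15 (-1.03 ± 0.22, adjusted p = 0.00465). Slc16a3 and Hk2 were already higher at rest with 25HC, by 1.60 and 1.09. With PAM3 Slc16a3 was at 331, 426 and 364 CPM with 25HC and at 394, 375 and 441 CPM without, a difference of -0.11 ± 0.32 that was not called. Hk3 was at 280.1, 300.0 and 252 CPM with and 257, 246 and 226 CPM without 25HC at rest (0.19 ± 0.16, not called), and was lower with 25HC under PAM3.

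Pfkm (-1.11 ± 0.24) and Slc2a6 (-1.58 ± 0.42) had interactions called with every library left out, as did Slc16a3, Hk2, Pfkl and Hk3. Aldoa (-0.99 ± 0.29), Gapdh (-0.91 ± 0.28), Tpi1 (-0.87 ± 0.30), Gpi1 (-0.52 ± 0.19) and P4ha1 (-0.81 ± 0.27) were called over all libraries and lost without at least 3 of the 12 single libraries. The 3 larger responses were those of Vegfa (1.96 ± 0.70, adjusted p = 0.0488), Hif1a (1.35 ± 0.45, adjusted p = 0.0379) and Kdm3a (0.77 ± 0.18, adjusted p = 0.00651). Vegfa gave -0.23 in untreated and 1.73 in treated cells, Hif1a 1.498 and 2.84, and Kdm3a -0.04 and 0.73.

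Kdm3a kept its call without any 1 library. Vegfa and Hif1a lost theirs without 11 and 8 of the 12 single libraries, with adjusted p up to 0.118 and 0.0945, and Vegfa had 0.0596 with the mouse as a block. The count of called genes was 22 with that block, the additions being Pgam1 (0.00517), Pfkp (0.00795), Pgk1 (0.0125), Eno1 (0.0151), Ldha (0.0157), Aldoc (0.0198), Slc2a1 (0.021), Pdk1 (0.0261) and Pfkfb4 (0.043), all negative, where the values in brackets are adjusted p. It was 22 when only the groups compared were fitted, 29 without mouse 2 in any group, and 7 to 16 without 1 library, the lowest without library 3 with PAM3 alone or library 1 with 25HC and PAM3. Over all tested genes the block called 1975 positive and 2538 negative of 12741. With only the groups compared these were 1581 and 2061 of 12931, and without mouse 2 they were 2079 and 3036 of 12731. Without library 3 with PAM3 alone they were 1315 and 1377 of 12914. Without library 1 with 25HC and PAM3 they were 1111 and 1240 of 12898.

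**Figure D4:**
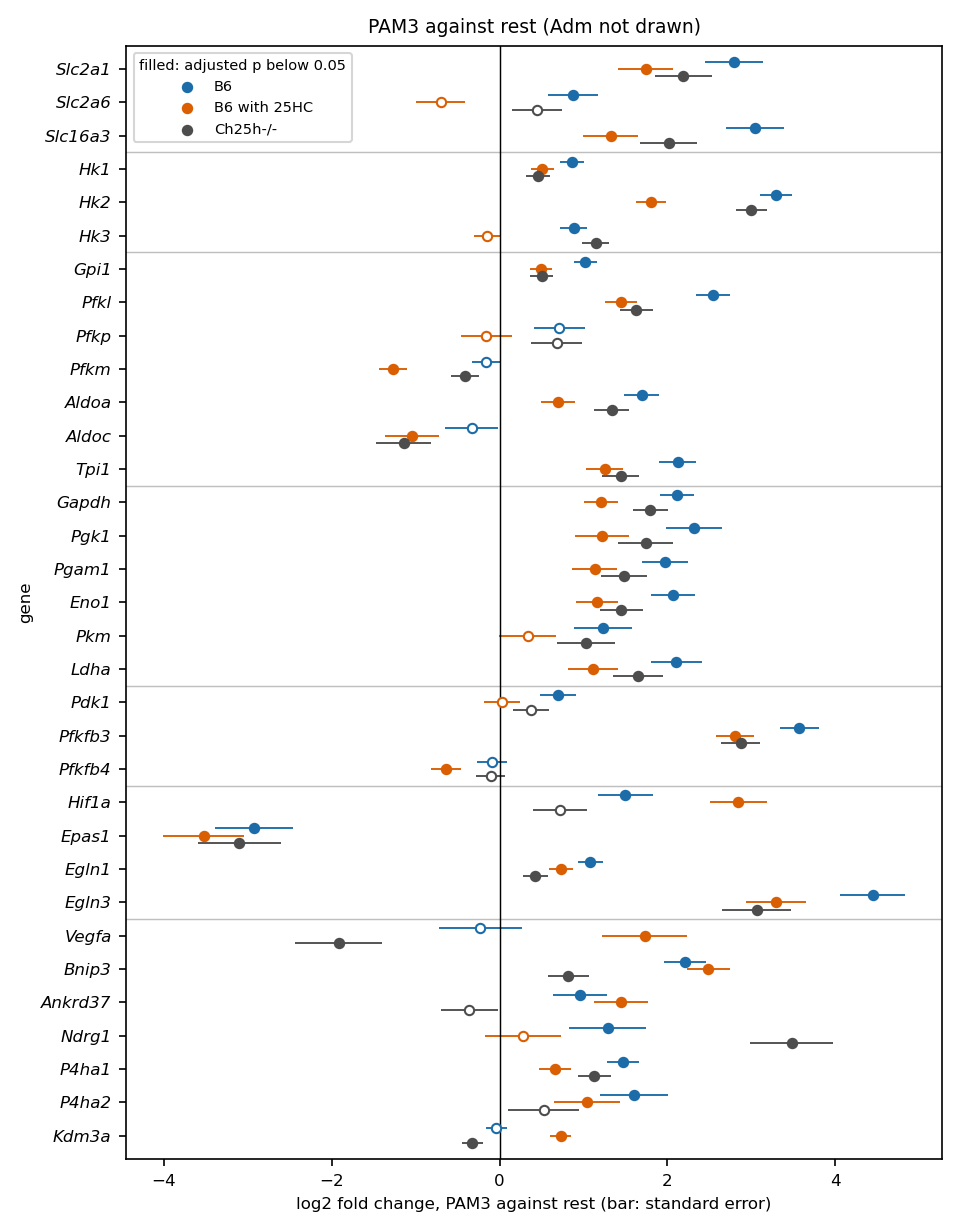
Log2 fold change of PAM3 against rest in untreated B6 (blue), 25HC-treated B6 (orange) and Ch25h-/- cells (grey) for 33 of the 34 genes, with SE bars and filled points for an adjusted p below 0.05. Orange points lie to the left of blue ones for all 22 glucose-to-lactate genes and to the right for Hif1a, Vegfa and Kdm3a, and Ndrg1 has its largest value in Ch25h-/-.

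Within isoenzyme families the make-up of the mRNA changed, taken as shares of CPM per kilobase of merged exons (mean ± SD, n = 3, described without a test). Hk2 was 5.35% ± 0.596 of hexokinase mRNA in untreated B6 at rest, 9.51% ± 2.39 with 25HC, 23.3% ± 2.74 with PAM3 and 26.8% ± 1.82 with both. Hk3 remained the major hexokinase mRNA in all 6 groups, between 53.3% and 77.1%. Merged exons of Hk1 span 8532 bases, against 4278 in its longest coding transcript. Hexokinase shares on transcript length were not computed and would be higher for Hk1. These families are shown because each isoenzyme differs in its regulation.

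On merged exon length, the leading phosphofructokinase subunit differed between the groups. Merged exons of Pfkp span 13401 bases, against 4145 in its longest coding transcript. For Pfkl these lengths are 6675 and 3730, and for Pfkm 3340 and 2879. Shares on transcript length were not computed and would be higher for Pfkp, so its order against the other subunits at rest and with both treatments is uncertain. At rest Pfkl, Pfkp and Pfkm held 32.7% ± 1.42, 34.6% ± 8.46 and 32.6% ± 8.45. With 25HC at rest Pfkp led, at 65.1% ± 5.58. With PAM3 Pfkl led, at 68.9% ± 1.21, and with both Pfkl held 51.8% ± 4.53 and Pfkp 45.3% ± 4.77. Pfkm went down to 9.80% ± 3.91 with 25HC, 10.4% ± 1.67 with PAM3 and 2.92% ± 0.249 with both, and it was lowest with both in each of the 3 mice.

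Among the PFKFB enzymes Pfkfb4 led at rest with 70.2% ± 4.57 and Pfkfb3 with PAM3 with 70.6% ± 2.50. With PAM3 Pfkfb3 held 75.5% ± 3.85 in 25HC-treated B6 and 63.5% ± 1.67 in Ch25h-/- cells. Aldoa made up 92.5% ± 0.920 of the 2 aldolases at rest and 99.3% ± 0.0490 with 25HC and PAM3. Per kilobase, the most abundant of the 34 mRNAs in untreated B6 at rest were Aldoa (273.6 ± 28.6 CPM per kilobase, SD, n = 3), Pkm (271 ± 74.2) and Ldha (117 ± 31.8), and those of Aldoa and Pkm did not differ beyond their spread. This order is uncertain for Pkm, Ldha, Gapdh and the other genes with near-identical copies. It also depends on the length used. Merged exons span 5001 bases for Pkm and 2911 for Aldoa, against 2432 and 1549 in their longest coding transcripts. The order on transcript length was not computed.

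**Figure D5:**
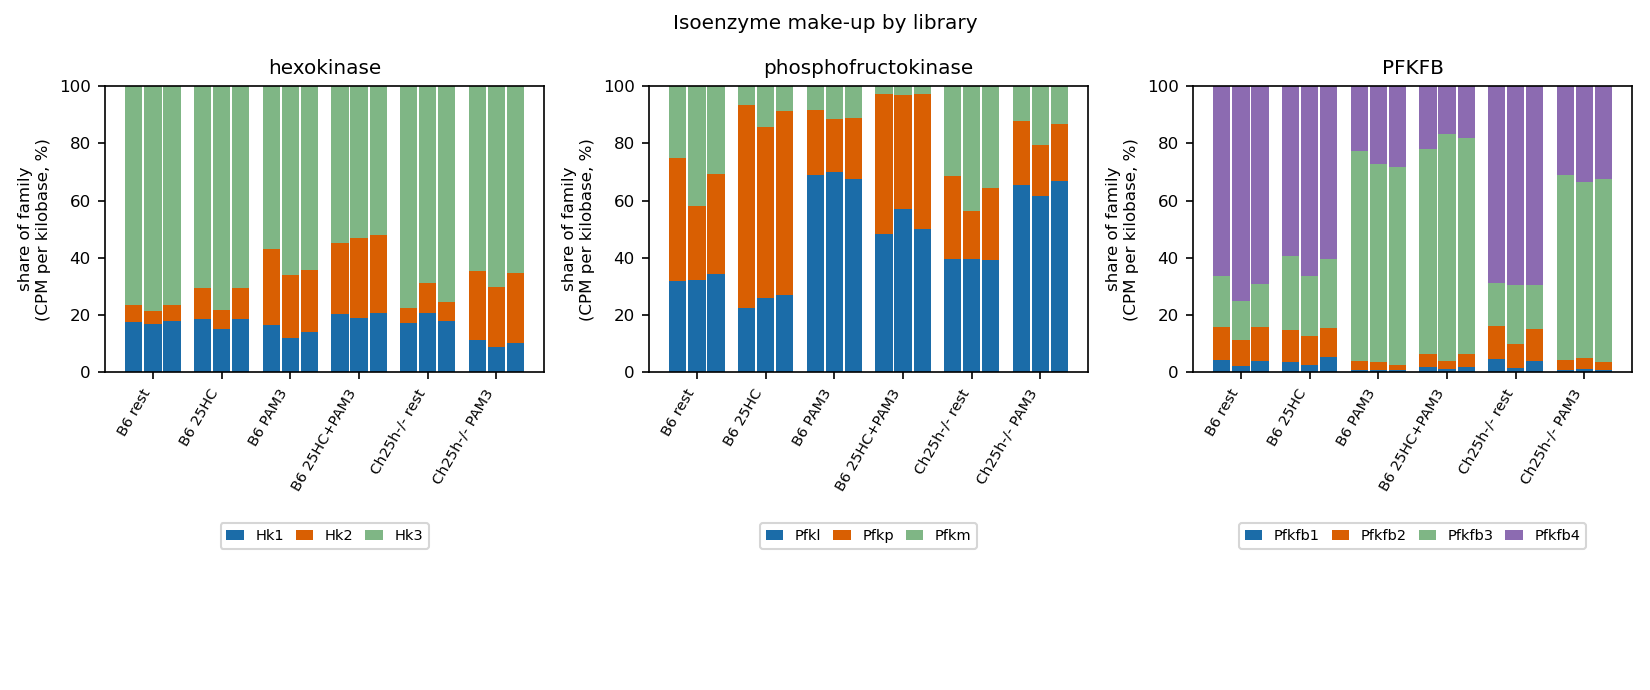
Share of each isoenzyme in the CPM per kilobase of its family, 1 bar per library (mouse 1, 2 and 3 from left in each group), for hexokinases, phosphofructokinase subunits and PFKFB enzymes. The Pfkp segment is tallest with 25HC at rest, the Pfkl segment with PAM3 and no 25HC, and Pfkfb3 replaces Pfkfb4 as the tallest segment in all groups with PAM3.

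In Ch25h-/- cells PAM3 against rest raised 22 of the 34 genes, beside 29.9% of all tested genes, and lowered 5, beside 32.1%, with a median of 1.08, against -0.04. Of the 22 glucose-to-lactate genes 16 rose and 2, Aldoc (-1.14 ± 0.33) and Pfkm (-0.41 ± 0.17), fell. Hk2 (27.2, 36.6 and 31.2 CPM at rest and 271, 209.6 and 278 CPM with PAM3, 3.00 ± 0.19, adjusted p = 9.5e-09) and Pfkfb3 (2.87 ± 0.23) rose most among them. Slc2a1 went from 26.2, 16.2 and 25.0 to 131, 65.9 and 111 CPM (2.19 ± 0.34, adjusted p = 6.25e-05) and Ldha from 447, 185 and 354 to 1272, 716 and 1099 CPM (1.65 ± 0.30, adjusted p = 0.000223), lowest in mouse 2 in both groups and without overlap. In the HIF system Egln3 rose from 0.891, 1.03 and 0.477 to 9.69, 3.75 and 6.60 CPM (3.06 ± 0.41, adjusted p = 1.69e-05) and Epas1 fell from 14.8, 3.70 and 4.29 to 1.48, 0.523 and 0.697 CPM (-3.10 ± 0.49, adjusted p = 7.13e-05), highest in mouse 1 in both groups, and -2.17 without library 1 at rest. Ankrd37, which rose in untreated B6, gave -0.36 ± 0.34, adjusted p = 0.366 here, and the difference between these responses did not pass the test (-1.32 ± 0.46, adjusted p = 1). Ndrg1 went from 127, 93.2 and 103 to 484, 2393 and 722 CPM (3.48 ± 0.50, adjusted p = 2.8e-05), with mouse 2 highest. Without library 2 with PAM3 that value was 2.47. Its log2 fold change was 1.29 in untreated B6, and the difference between the genotypes' responses was 2.19 ± 0.64, adjusted p = 0.992. Adm had 7 counts at rest and 177 with PAM3, a ratio of 19.9 with a 95% interval for counting error of 9.47 to 50.3, against 147.6 (50.4 to 717) in 25HC-treated B6, where it had 3 and 1234. The fitted log2 fold changes of these, 4.28 and 6.91, were 5.02 without library 2 of Ch25h-/- at rest and 7.71 without library 3 of 25HC-treated B6 at rest.

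Vegfa fell from 29.1, 169 and 45.4 to 29.97, 11.8 and 22.6 CPM, a difference carried by the high library 2 at rest (-1.91 ± 0.52, adjusted p = 0.00486). Without that library it was -0.79 (adjusted p = 0.0721), and the fall of Kdm3a (-0.32 ± 0.13) was -0.22 (0.169). The 6 neutrophil markers also stood out in that library, at a summed 46.0 CPM. Its stromal, dendritic cell and macrophage markers, at a summed 9.94, 2.67 and 40452 CPM, were likewise the highest of its group. The part of these markers in the result was not tested. With the mouse as a block Kdm3a was no longer called (0.0619), while Pfkp (0.00137), Hif1a (0.0287) and Pdk1 (0.0383) passed as higher. The calls on Pfkm and Egln1 (0.42 ± 0.15) were lost without any 1 of 6 and without 4 of 6 libraries, and those on Bnip3 (0.82 ± 0.25) and Hk1 (0.46 ± 0.14) without library 1 with PAM3 (adjusted p = 0.0712 and 0.068). With only the groups compared in the fit 20 of the 34 genes were called, beside 3362 higher and 3445 lower of 11836 tested genes. Aldoc (0.089), Pkm (0.0974), Gpi1 (0.051), Hk1 (0.0629), Bnip3 (0.0698), Vegfa (0.0602) and Kdm3a (0.0593) then lost their call, with adjusted p in brackets.

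At rest no gene of the 34 differed between Ch25h-/- and B6. The share of all tested genes called was 0% higher and 0.00785% lower, and DESeq2 also called 0 of the 34. In edgeR's test 2 of the 34 genes had an unadjusted p below 0.05, Pfkp and Slc2a6, both lower. The share of all tested genes at that unadjusted cut-off was not computed. Slc2a6 was at 72.1, 79.3 and 69.8 CPM in Ch25h-/- and 111, 157 and 95.3 CPM in B6, without overlap (-0.72 ± 0.30, adjusted p = 0.859).

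With PAM3 again 0 of 34 were called in edgeR's quasi-likelihood test, where 0.0471% of all tested genes were higher and 0.126% lower. In edgeR's test 22 of the 34 genes had an unadjusted p below 0.05, 21 of them lower in Ch25h-/- and Ndrg1 higher. The share of all tested genes at that unadjusted cut-off was not computed, so this count only describes these genes. DESeq2 called 12 lower and 1 higher, beside 254 lower and 137 higher of 12482 genes. Without library 1 of Ch25h-/- with PAM3 edgeR's test called 11, beside 182 lower and 72 higher of 12967 genes, and without mouse 2 in any group 17, beside 273 lower and 111 higher of 12731. The median was -0.57, against -0.04 over all genes, and 30 of 34 values were negative. Bnip3 was at 59.6, 25.6 and 49.2 CPM in Ch25h-/- and 116, 70.4 and 108 CPM in B6 (-1.13 ± 0.25, adjusted p = 0.0677), and P4ha2 at 14.9, 6.97 and 11.3 against 39.2, 30.9 and 36.4 CPM (-1.68 ± 0.41, adjusted p = 0.0922), each without overlap.

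Among the carriers Slc16a3 was at 249, 84.2 and 198 CPM in Ch25h-/- and 394, 375 and 441 CPM in B6, with an unadjusted 95% interval of the log2 difference of -1.88 to -0.50 (adjusted p = 0.114). Hk2 was at 271, 209.6 and 278 against 272, 266 and 265 CPM, with an interval of -0.45 to 0.28, which holds 0. Ndrg1, at 484, 2393 and 722 CPM in Ch25h-/- against 159.7, 494 and 343 CPM, had overlapping groups and 1.85 ± 0.46, adjusted p = 0.0928. Mouse 2 was the lowest of the Ch25h-/- libraries with PAM3 for 20 of the 22 glucose-to-lactate genes and the highest for Ndrg1. The same library had the most neutrophil markers, at 20.3 CPM against 11.9 and 10.5 in its partners and 4.90 to 9.20 in B6 with PAM3, and the most stromal markers, at 8.45 against 4.15 and 2.70 in its partners and 2.53 to 4.68 in B6, and their part in these results was not tested. The PAM3 responses of the genotypes differed for 0 genes, at 0% of all tested genes in either direction, and for 0 by DESeq2. In edgeR's test 11 of the 34 had an unadjusted p below 0.05, 10 of them smaller in Ch25h-/- cells. The share of all tested genes at that unadjusted cut-off was not computed here either.

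Other genes of these pathways, which were listed by role, moved less uniformly. Of 13 tested further genes of glycolysis and lactate handling, 3 rose and 7 fell with PAM3 in untreated B6, where 31.3% of all tested genes rose and 30.8% fell, shares that also stand beside the counts of the other lists. Eno2, a second enolase, rose from 4.94, 5.18 and 5.63 to 23.4, 24.3 and 26.6 CPM (2.23 ± 0.24, adjusted p = 1.65e-06) and was lower with 25HC present (9.003, 13.6 and 9.73 CPM, -1.19 ± 0.23, adjusted p = 0.000639). Slc16a7, an importer of monocarboxylates, fell (-1.56 ± 0.19), as did Galm (-1.24 ± 0.15), which interconverts the forms of glucose. The interaction was negative and called for 4 of the 13, beside 15.8% of all tested genes. These were Adpgk (-1.12 ± 0.26), Bpgm (-0.73 ± 0.19), Eno2 (-1.16 ± 0.33) and Tigar (-0.86 ± 0.27).

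Of 12 tested genes that take pyruvate into the mitochondria, 7 rose and 2 fell with PAM3 in untreated B6. The subunits of pyruvate dehydrogenase Pdha1 and Dlat rose (0.68 ± 0.10 and 0.89 ± 0.14), while the phosphatase Pdp1, which activates the complex, and the kinase Pdk2, which inhibits it, fell (-1.38 ± 0.16 and -2.67 ± 0.43). Of 7 pentose phosphate genes 5 rose, with Rpia (1.14 ± 0.15) and Tkt (0.79 ± 0.19) of its non-oxidative arm among them, and all 7 estimates were positive, and of 10 glycogen genes 9 rose, among them the synthase Gys1 (2.79 ± 0.19) and Pgm2 (1.96 ± 0.18). With 25HC and PAM3 together, 1 glycogen gene of the 10 was higher than with PAM3 alone, beside 21.5% of all tested genes. Another 3 were lower, beside 23.6%, the phosphorylase Pygb among them (-1.23 ± 0.12).

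In the HIF pathway Vhl, which targets HIF alpha subunits for destruction, rose with PAM3 in untreated B6 (0.94 ± 0.14), Cited2, which competes with HIF for its coactivator, fell (-1.27 ± 0.11), and Hif3a, another alpha subunit, was at 0.0309, 0.0279 and 0.0831 CPM at rest, too few reads for a fold change, and at 1.38, 2.13 and 1.57 CPM with PAM3. Of 29 tested further hypoxia targets 14 rose and 5 fell. With 25HC and PAM3 against PAM3 alone 8 were higher and 5 lower, near the 21.5% and 23.6% of all tested genes, with the smallest adjusted p for Hilpda, a lipid droplet protein, at 5.00, 4.25 and 5.18 CPM with PAM3 alone and 55.7, 47.7 and 64.1 CPM with both (3.54 ± 0.17, adjusted p = 9.91e-09). Its response to PAM3 was larger with 25HC by 2.34 ± 0.22. Rora, a nuclear receptor, fell with PAM3 in untreated B6, from 31.1, 30.3 and 33.3 to 8.43, 4.44 and 4.70 CPM (-2.44 ± 0.24, adjusted p = 6.8e-07), and was at 24.9, 18.5 and 24.6 CPM with both, a response less negative with 25HC by 2.49 ± 0.33. Hmox1 (heme oxygenase) and Jmjd6 rose with PAM3 in untreated B6 by 1.99 ± 0.13 and 1.81 ± 0.13. At rest 9 of the 29 rose and 2 fell with 25HC, beside 14.8% and 11.4% of all tested genes, Hilpda among those that rose (from 4.02, 4.01 and 3.45 to 9.82, 6.89 and 9.65 CPM).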

How the data were processed

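Deposited values are raw read counts per gene. Per the submitters' processing notes, the authors used FastQC 0.11.9, GSNAP 2018-07-04, featureCounts of Subread 1.5.2 and edgeR 3.26.8 on GRCm38/mm10. The sources used here do not name the strand setting, the annotation release or the treatment of reads with several alignments.

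Counts of all 18 libraries were fitted together in edgeR 4.0.16 (R 4.3.3) with its default filter on low counts, TMM scaling and the quasi-likelihood test with 12 residual degrees of freedom. P-values were adjusted by the Benjamini-Hochberg method over 12741 genes, "called" means an adjusted p below 0.05, and ± after a log2 fold change is a standard error. CPM uses TMM-scaled library sizes. Each group had 3 libraries, with 14.04 to 150.4 M counts a library, and counting intervals cover counting error only.

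No threshold on values chose the members, but the members and lists were chosen with earlier results of these data known. All 34 members were to be named, and from each other list up to 3 genes per comparison with the smallest adjusted p, besides those a sentence on a role needs. Alternatives were DESeq2 1.42.0, other scalings and filters, fits of the compared groups only, the mouse number as a block, and leaving out libraries. The labels' mouse number is taken to mark the same animal within a genotype. Deviations of same-numbered libraries from their group means correlated between 25HC-treated and untreated B6 at rest (r = 0.45, 0.58 and 0.35) and, with PAM3, for mice 1 and 2 (0.41 and 0.38) but not mouse 3 (-0.16). Between PAM3 and rest the correlations were weaker, at 0.23, 0.31 and -0.08 in untreated B6. They were 0.21, 0.20 and 0.11 in 25HC-treated B6 and 0.19, 0.24 and 0.20 in Ch25h-/- cells. Positions are those of GENCODE M21 (GRCm38), copies were sought with blastn 2.17.0, and promoter windows are from RefSeq. The model was tested on simulated data.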

Additional observations from a re-analysis of the deposited data

Results flagged for a closer look

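For 14 genes the PAM3 response differed between 25HC-treated and untreated B6 cells in the test of the difference itself (edgeR's interaction term, treated minus untreated, log2 scale). It was smaller or more negative with 25HC for Slc16a3 (-1.72), Slc2a6 (-1.58), Hk2 (-1.49), Pfkm (-1.11), Pfkl (-1.10), Hk3 (-1.03), Aldoa (-0.99), Gapdh (-0.91), Tpi1 (-0.87), P4ha1 (-0.81) and Gpi1 (-0.52). It was larger or less negative for Vegfa (1.96), Hif1a (1.35) and Kdm3a (0.77). Of the 34 genes these are 11 and 3, beside 15.8% and 12.5% of all tested genes. Vegfa lost its call without 11 of the 12 single libraries, Gpi1 without 9, and Tpi1 and Hif1a without 8. P4ha1 lost its call without 7, Gapdh without 6 and Aldoa without 3. Slc2a6 and Hk3 were called as higher with PAM3 in untreated cells (0.88 and 0.88) and had estimates below 0 that were not called in treated cells (-0.70 and -0.15).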

How the results depend on the processing

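Of 124 called results on the 34 genes over all comparisons, 94 kept their call with each library left out in turn, 102 under every other setting and 91 under all of these, and 0 reversed direction. The number of genes called by 25HC at rest was 14, 22 without mouse 2 in any group and 6 to 16 without 1 library. For 25HC with PAM3 it was 13, 21 when only the groups compared were fitted, 26 without mouse 2 and 9 to 13 without 1 library. For the interaction it was 14, 22 when only the groups compared were fitted, 29 without mouse 2 and 7 to 16 without 1 library. For PAM3 it was 28 in B6 without 25HC (26 to 27 without 1 library), 28 in B6 with 25HC (27 to 28) and 27 in the knockout (23 to 28, and 20 when only the groups compared were fitted). Between the genotypes with PAM3 it was 0, 13 with DESeq2, 17 without mouse 2 and 0 to 11 without 1 library. The genotype comparison at rest and the interaction with genotype gave 0 under every setting run. The counts over all tested genes moved as well. For 25HC at rest they were 1886 higher and 1448 lower of 12741, and 2693 and 2412 of 12731 without mouse 2. Without library 1 of 25HC-treated B6 at rest they were 973 and 551 of 12963. For 25HC with PAM3 they were 2744 and 3006, and 3042 and 3573 without mouse 2. Without library 2 of untreated B6 with PAM3 they were 2195 and 2389 of 12912. For the interaction they were 1597 and 2014, and 2079 and 3036 without mouse 2. Without library 1 of B6 with 25HC and PAM3 they were 1111 and 1240 of 12898. The cause of these differences was not tested.

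With the mouse number as a replicate block the counts were 18 for 25HC at rest, 19 for 25HC with PAM3, 29 for each of the 3 PAM3 comparisons and 22 for the interaction. Of all 12741 tested genes the block called 2242 higher and 1954 lower for 25HC at rest and 3029 and 3345 for 25HC with PAM3. For PAM3 these were 4214 and 4177 in untreated B6, 3806 and 4108 with 25HC and 3954 and 4263 in the knockout. For the interaction they were 1975 and 2538. Between genotypes the same number does not mark the same animal. There the replicate block gave 13 with PAM3, beside 120 higher and 248 lower of 12741 genes, and 0 at rest. With PAM3 the deviations of same-numbered libraries correlated between genotypes at r = 0.32, 0.46 and 0.09. The depth of 14.04 to 150.4 M counts limits sparse genes such as Adm at rest, with 3 to 12 counts a group.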
